A study of Caenorhabditis elegans with 2 samples.

Results

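The genes described here encode the translation elongation factors of Caenorhabditis elegans: eef-1A.1, eef-1A.2, eef-1B.1, eef-1B.2, eef-1G, eef-2 and iff-2. These 7 of the 19973 nuclear protein-coding genes of the annotation were followed through lists of regions. The lists came from chromatin immunoprecipitation and sequencing (ChIP-seq) of the transcription factor LET-607. The genes were taken by name, and they were selected on these same lists: the presence, signal, rank and summit position of regions in a window reaching from 1000 bp before to 200 bp after an annotated transcript start. Those values are therefore given as a description, without a test.

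LET-607, a basic leucine zipper factor of the CREB3 type, was carried as a C-terminal GFP-FLAG fusion by a stable transgenic line (strain YL651) and was precipitated with an antibody against GFP. The worms carried the alleles let-607(tm1423) and unc-119(ed3), the latter on chromosome III, together with vrIs121, an insertion of a LET-607 fosmid and a working unc-119 (+). The only group was whole young adults of mixed sex aged 49.5 hours, synchronised as starved L1 larvae after bleaching, in 2 biological replicates, so every value is from chromatin of all tissues mixed and no condition can be compared. The deposited files are 4 lists of regions on ce11: an optimal list of 1488 regions held to a limit on irreproducible discovery rate (IDR) between replicates, a pooled list of 30000 candidates, and candidates of replicate 1 (30000) and replicate 2 (26493). By their labels, the pooled and replicate lists hold peaks and background, as input to the IDR step. A region found only in them need not be a site of LET-607. Signal is the authors' own score per region, with a formula that is not given. It is read here only within a list or as a ratio. The files hold no read counts, so the depth of the libraries is unknown.

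During translation, eEF1A in its GTP form brings each aminoacyl-tRNA to the ribosome. The eEF1B complex, in which eef-1B.1 and eef-1B.2 encode beta/delta-type exchange subunits and eef-1G the gamma subunit, reloads eEF1A with GTP. EEF-2 moves the ribosome along the messenger RNA by a codon, and IFF-2 is a worm eIF5A, the hypusine-carrying factor that helps the ribosome past difficult peptide bonds such as proline runs.

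All 7 genes had an optimal region in the window, where 4.81% of the nuclear protein-coding genes (960 genes) had one. All 7 also had a pooled region there, against 39% of the genes. These counts follow from the way the genes were selected and are not a result about them. Signal of the best optimal region ran from 115.1 to 1546 over the 7 genes, a 13.4-fold range, with a median of 269. The median over all 960 genes with an optimal region was 174. Each gene had 1 optimal region in its window, and 5 of the 7 regions stood at the highest −log10 q-value of the list, 3.18, as did 766 of the 1488 regions, so the q-value does not order them.

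The factor that carries hypusine and the translocase had the highest signal. The region of iff-2 (WBGene00002065), chrII:8561246-8561630, had a signal of 1546 and rank 18 of 1488. In replicate 1 its signal was 725 (rank 16) and in replicate 2 it was 827 (rank 18). The region of eef-2 (WBGene00001167), chrI:9163393-9163675, had a signal of 763 and rank 51, with 346 (rank 48) in replicate 1 and 419 (rank 58) in replicate 2. Both genes thus lay among the 60 strongest regions of each replicate, and 97.1% and 93.6% of the 960 genes with an optimal region had a lower signal.

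Among the genes for the eEF1 complex, the gamma subunit had the highest signal. The region of eef-1G (WBGene00008920), chrV:10965585-10965786, had a signal of 402 and rank 144, with 182 (rank 124) in replicate 1 and 224 (rank 151) in replicate 2. The region of eef-1A.2 (WBGene00001169), chrX:7823034-7823437, had a signal of 269 and rank 261, with 133 in each replicate (rank 231 and rank 329). The region of eef-1A.1 (WBGene00001168), chrIII:6971897-6972300, had a signal of 186 and rank 529, with 80.0 (rank 686) in replicate 1 and 111 (rank 471) in replicate 2. The order of these 3 genes was the same in both replicates and in the optimal list.

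Both genes for exchange subunits stood near the lower edge of the optimal list. The region of eef-1B.1 (WBGene00018846), chrIII:7973155-7973558, had a signal of 115.1 and rank 1363. The region of eef-1B.2 (WBGene00012768), chrIV:15036989-15037392, had a signal of 115.1 and rank 1364, the next in order. The weakest optimal region had a signal of 110.822 and the strongest pooled region outside the list had 110.815, so both genes lie just inside the authors' threshold, and fewer than 5 in 100 of the genes with an optimal region had a lower signal (4.69% and 4.58%).

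The replicates differed more for eef-1B.1 than for eef-1B.2. The eef-1B.1 signal was 32.6 in replicate 1, at rank 7447 of 30000 and a −log10 q-value of 0.400, and 76.1 in replicate 2, at rank 986 of 26493 and a −log10 q-value of 2.45. The eef-1B.2 signal was 55.4 in replicate 1 (rank 1598) and 62.1 in replicate 2 (rank 1527). Thus eef-1B.2 was above eef-1B.1 in replicate 1 and below it in replicate 2, and their order is not settled by these data. Of the other neighbours in the order of signal, none changed places between replicates.

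To set these differences beside the rest of the list, each optimal region was matched to the nearest region of each replicate with a summit within 100 bp. In the 1414 matched regions the ratio of replicate 2 to replicate 1 signal had a median of 1.20, with 0.633 and 2.11 at the 5th and 95th percentiles. The ratio was 2.33 for eef-1B.1, above 97.0% of matched regions, and 23 matched regions (1.63%) had a rank as low as its rank in replicate 1. For the other 6 genes it ran from 1.00 (eef-1A.2) to 1.39 (eef-1A.1), above 30.0% and 68.2% of the matched regions. Among the 1488 strongest regions of each replicate alone, 5 of the 7 genes had one in replicate 1 (4.71% of all genes did) and 6 of the 7 in replicate 2 (4.83%). Both eef-1B genes were missing in replicate 1, and eef-1B.2 in replicate 2.

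**Figure D1:**
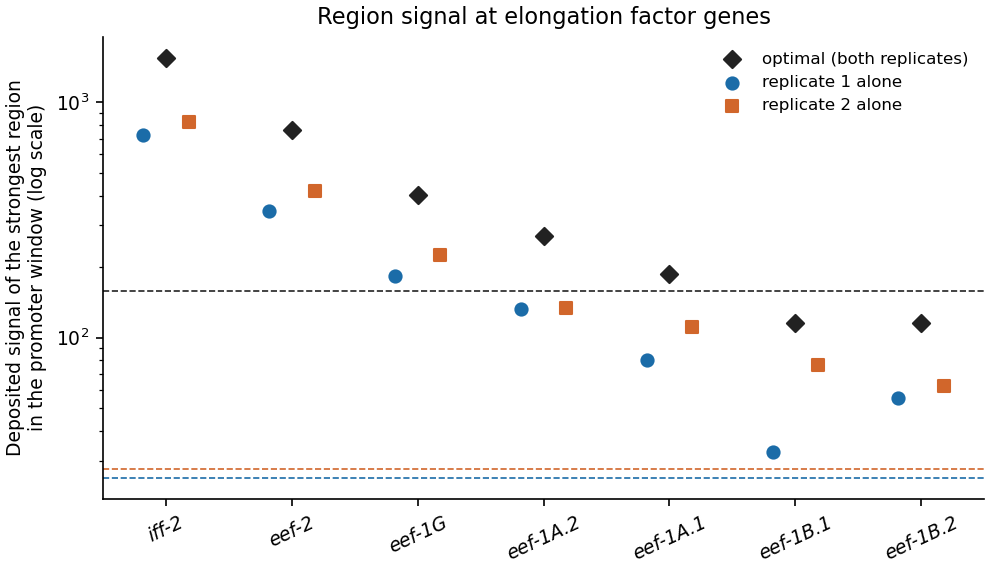
Deposited signal (log scale) of the strongest region in the promoter window of each of the 7 genes. Diamonds are the optimal list, circles replicate 1 and squares replicate 2; dashed lines are the median of all regions of the list of the same colour. From iff-2 (1546) to both eef-1B genes (115.1) the replicates keep the order except for eef-1B.1, whose replicate 1 value (32.6) is the lowest point.

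**Figure D2:**
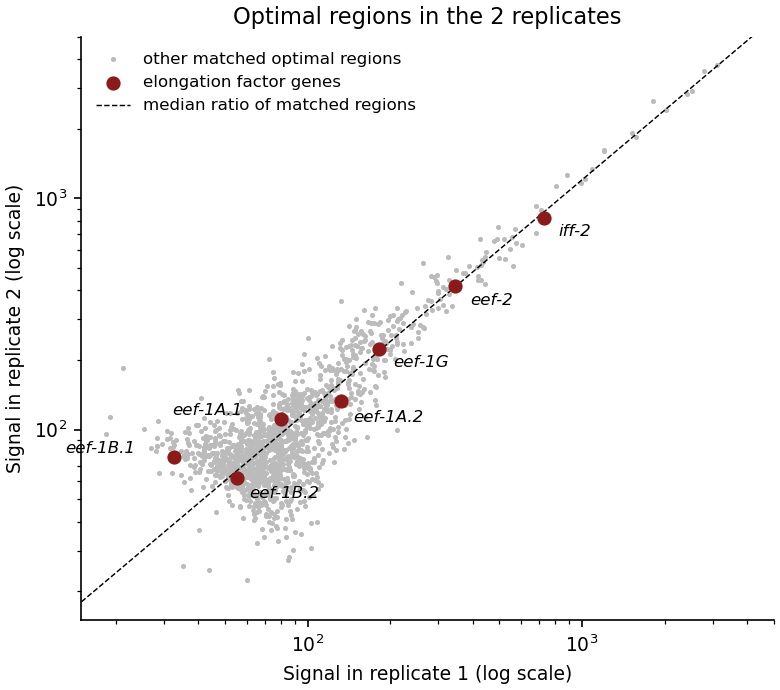
Signal of the 1414 matched optimal regions in replicate 1 (x axis) and replicate 2 (y axis), both on log scales, with the 7 genes as large points and the median ratio of 1.20 as a dashed line. All but 1 of the 7 genes lie near the line and eef-1B.1, with a ratio of 2.33, lies at the edge of the cloud.

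Summits lay close to the first annotated start at 5 genes and farther upstream at both eef-1A genes. The eef-2 summit was 22 bp and the eef-1B.1 summit 29 bp after the first annotated start, each in the 5′ UTR, the transcribed stretch before the coding sequence. The eef-1G summit was 29 bp, the iff-2 summit 77 bp and the eef-1B.2 summit 140 bp upstream of the start. The summit of eef-1A.1 was 387 bp and that of eef-1A.2 418 bp upstream. The median absolute distance was 77 bp over the 7 genes and 266 bp over the 960 genes with an optimal region. A summit within 150 bp of the start was seen for 5 of the 7 genes and for 28.8% of the 960. Within 100 bp it was seen for 4 of the 7 and for 19.4% of the 960. Summit position was among the values used for selection, so these shares are a description only. Both eef-1A summits fell between 350 and 450 bp upstream, as did those of 97 of the 960 genes (10.1%). That band was set around the distances of both eef-1A summits, so the share is a description only.

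The positions repeated between lists. Replicate summits of 1 gene lay 4 bp (eef-1B.2) to 22 bp (eef-2) apart, and over all 4 lists the span was 5 bp (iff-2) to 40 bp (eef-1B.2). Worm transcript starts are often trans-splice sites, where a leader RNA replaces the original 5′ end, so a distance to an annotated start need not be a distance to the start of transcription. The iff-2 summit, for instance, was 489 bp upstream of the first coding base, and that of eef-1A.1 419 bp upstream.

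Narrow regions were more frequent among the strongest regions of the list than in the whole of it, though not every strong region was narrow. A width of 404 bp was shared by 1222 of the 1488 optimal regions (82.1%), including those of both eef-1A and both eef-1B genes. The regions of eef-1G (202 bp), eef-2 (283 bp) and iff-2 (385 bp) were narrower, as were 236 regions of the list and 72 of its 100 strongest.

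**Figure D3:**
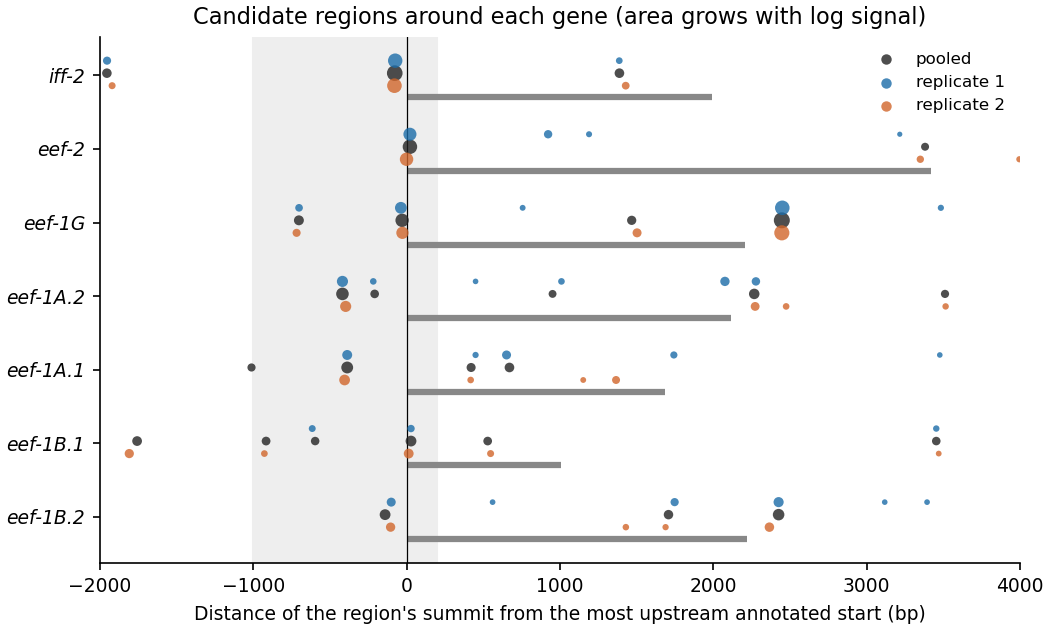
Summits of pooled (dark), replicate 1 (blue) and replicate 2 (orange) regions by distance in bp from the most upstream annotated start of each gene, with the point area growing with log signal. The grey band is the promoter window and the bar the annotated gene; the strongest point in the band sits near 0 for 5 genes and near 400 bp upstream for both eef-1A genes, and the largest point outside the band lies past the end of eef-1G.

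The regions of the eef-1A copies lay in sequence that sets the copies apart. The proteins of eef-1A.1 and eef-1A.2 were identical at 463 of 463 residues and their coding sequences at 1305 of 1389 bases (94.0%), so a read from a coding exon can match both. In the genes, 5.81% of the 36-base words of eef-1A.1 and 4.61% of those of eef-1A.2 also occurred in the other copy, and with 50-base words 0.366% and 0.290% did. In contrast, every 36-base and 50-base word of the 1000 bp upstream of each copy, and of the optimal regions of all 7 genes, occurred once in the genome. The longest word shared by the upstream stretches of both eef-1A copies was 12 bases, within the 10 to 13 bases of the other 20 pairs among the 7 genes. Read length and the treatment of reads with more than 1 match are not given for the region lists. The summit windows of both copies are shown on the strand of the gene, with 50 bp to either side of the summit. The sequence is that of WBcel235, the same assembly as ce11. Both windows hold GAGAGATT, in lower case here. It was noticed on reading them and was not counted in other windows, so it cannot be called particular to the copies. After both copies comes the window of iff-2, the strongest region. Capitals mark ACGCA or its reverse complement.
eef-1A.1, chrIII:6972049-6972149, minus strand: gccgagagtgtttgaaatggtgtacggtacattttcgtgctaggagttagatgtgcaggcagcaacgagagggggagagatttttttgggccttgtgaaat
eef-1A.2, chrX:7823186-7823286, plus strand: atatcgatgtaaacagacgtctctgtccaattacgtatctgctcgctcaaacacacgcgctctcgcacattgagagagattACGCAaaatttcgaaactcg
iff-2, chrII:8561394-8561494, minus strand: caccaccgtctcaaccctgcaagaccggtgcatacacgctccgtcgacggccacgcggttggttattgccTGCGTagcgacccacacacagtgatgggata

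**Figure D4:**
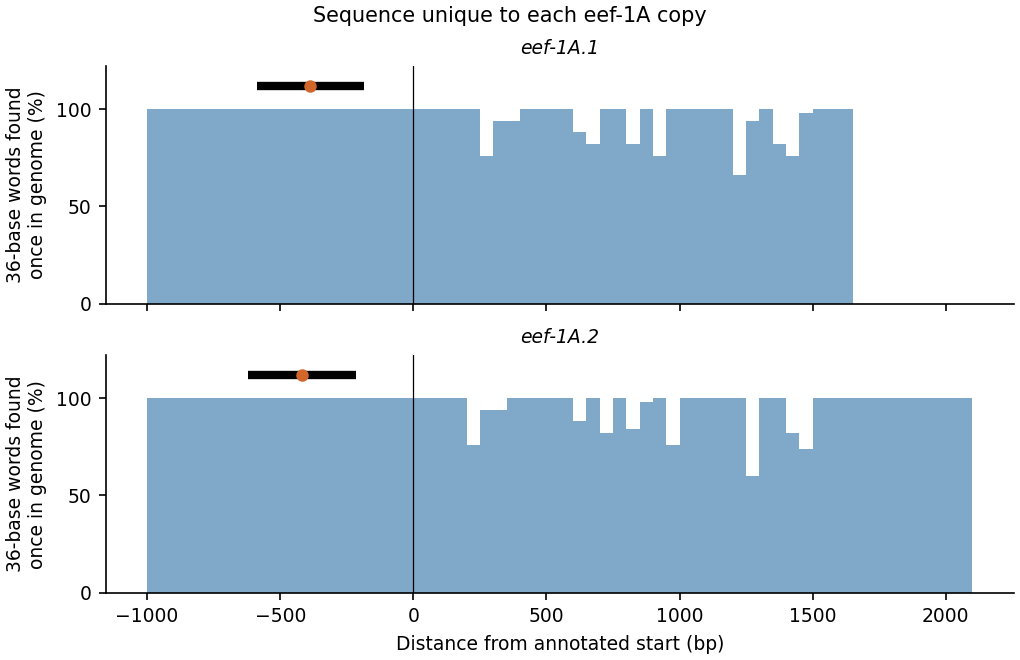
Percentage of 36-base words found once in the genome, in bins of 50 bp, along eef-1A.1 and eef-1A.2 by distance in bp from the annotated start. The black bar is the optimal region and the orange point its summit; the bins with shared words all lie after the start, and all bins upstream stand at 100%.

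The eef-1B pair was less alike. The protein of eef-1B.1 (213 residues) and the 263-residue isoform of eef-1B.2 were identical at 130 of 145 aligned residues (89.7%), and eef-1B.2 has a second annotated protein of 440 residues. In the genes, 1.55% of the 36-base words of eef-1B.1 and 0.686% of those of eef-1B.2 occurred in the other. Their summit neighbourhoods held a word in common, GGCGCATGG, which was noticed on reading the sequences. Its centre was 12 bp from the eef-1B.1 summit and 33 bp from the eef-1B.2 summit, and it is shown in capitals within 29 bases of either gene, on the strand of the gene.
eef-1B.1, chrIII:7973355-7973383, minus strand: ctcgtttgaaGGCGCATGGggtttcgaca
eef-1B.2, chrIV:15037144-15037172, plus strand: aaactttaaaGGCGCATGGagattcacag

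On either strand, GGCGCATGG was in 3 of the 1488 optimal summit windows (0.202%), in 0.0456% of 28512 pooled windows outside the optimal list and in 0.0200% of 19973 windows of the same length that end just before a gene's first annotated start. With the summits of replicate 1 alone or of replicate 2 alone, 1 of the 7 genes held it: the eef-1B.2 summit lay 140 bp upstream of the start in the optimal list but 100 bp and 104 bp upstream in the replicates, which leaves the word outside the window. The third optimal window that held it had a signal of 445 and lay in no protein-coding gene's promoter window.

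A second word was read in the windows of eef-1G and iff-2. CTGCGTAG was found on the coding strand of both, centred 15.5 bp and 22.5 bp from the summit, and in 12 of the 1488 optimal windows (0.806%), in 0.105% of the pooled windows and in 0.0651% of the windows before starts. It contains the reverse complement of ACGCA. The 79 bases that end just before the first start of eef-1G are shown for the 2 copies of that core they hold, in capitals. Another copy of ACGCA in the summit window, centred 4 bp after the start, lies beyond the stretch shown.
eef-1G, chrV:10965640-10965718, plus strand: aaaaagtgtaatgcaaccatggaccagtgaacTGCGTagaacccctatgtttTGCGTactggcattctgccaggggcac

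The shorter ACGCA was in the windows of 4 of the 7 genes, eef-1A.2, eef-1G, eef-2 and iff-2, and in 24.5% of the optimal windows, 10.8% of the pooled ones and 8.95% of those before starts. Its nearest copy was 4 bp from the summit at eef-1G, 12 bp at eef-2, 22 bp at iff-2 and 33 bp at eef-1A.2. These words were picked from the members' own windows, so their counts among the 7 genes support nothing further.

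Of 9 motifs searched on both strands, of which AGACGCAG and ACGCAGAC had been picked by earlier work on these regions, 3 were found in the summit windows of the 7 genes. ACGT, the core of many basic leucine zipper sites and part of the longer TGACGTCA, TGACGTGG and CACGTG, was in that of eef-1A.2, at 2 places 16.5 bp and 32.5 bp from the summit. It was in 34.1% of the optimal windows and 22.0% of those before starts. GAGAGAGA was also in the window of eef-1A.2 (3.36% of optimal windows). ACGCAGAC, which holds ACGCA, was in that of eef-1G (3.16%), 34.5 bp from the summit and inside the transcript. TGACG (21.8% of optimal windows), TGACGTCA (0.739%), TGACGTGG (1.88%), CACGTG (7.80%), TGATAA (15.5%) and AGACGCAG (5.58%) were in none of the 7 windows. With 100 bp to either side ACGT was found at 4 genes, eef-1A.1, eef-1A.2, eef-1B.1 and iff-2, and in 51.6% of the optimal windows of that length. TGACG was then found at eef-1B.2 alone among the 7 and in 34.1% of the optimal windows, and it was also in 1 window of the 7 genes with the summits of replicate 1. The G and C content of the iff-2 window was 60.4%, higher than in 95.9% of optimal windows, and ran from 42.6% to 47.5% for the other 6 genes around the median of 46.5%.

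Divergent neighbours shared most of the summits. For 5 of the 7 genes the summit also lay in the window of another protein-coding gene, as it did for 40.5% of the 960 genes with an optimal region. At eef-1A.1 the summit was 154 bp upstream of rfc-4, a subunit gene of the DNA clamp loader, and thus nearer to that start than to its own. At eef-1B.1 it was 360 bp upstream of aco-2, which encodes mitochondrial aconitase, and at eef-1G 151 bp upstream of ctf-4, named after a yeast replication factor. At eef-2 it was 287 bp upstream of clsp-1, a worm claspin gene, and at iff-2 858 bp upstream of F54C9.14. In the last 4 cases the elongation factor start was the nearer. The summits of eef-1A.2 and eef-1B.2 lay in no other protein-coding window. Which of the paired genes a region acts on was not tested.

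An annotated non-coding gene lay at or next to the summit at eef-1A.1 and eef-1B.1. The microRNA gene cel-mir-5549 lies on the strand of eef-1A.1 with its start 14 bp from the summit. The summit of eef-1B.1 is in an exon of F54H12.9, a non-coding RNA gene on the other strand. The region of eef-1A.2, but not its summit, overlaps the non-coding RNA gene R03G5.8 on the other strand. The start of R03G5.8 is 289 bp from the summit, nearer than that of eef-1A.2. The region of eef-1B.2 overlaps the end of fcd-2, a protein-coding gene on the same strand, 155 bp from the summit. No tRNA gene was within 500 bp of any of the 7 summits, the nearest being 5114 bp from that of eef-1B.1. The shares of all optimal regions near tRNA or other non-coding genes are not given here, so these are descriptions only.

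Inside the genes and outside the window, no optimal region had its summit in any of the 7. Pooled candidates did in all 7, against 38.2% of the 10876 protein-coding genes 1005 to 3422 bp long, the range of lengths of the 7 genes. The strongest of these pooled signals was 70.7 at eef-1A.1 and 70.3 at iff-2, and the others lay between 37.9 and 66.1. The optimal list holds the strongest pooled regions, so that these are weaker follows from how it was made. They did not all recur in the replicates: eef-1B.1 had no such region in replicate 1 and eef-1A.2 none in replicate 2. Nor did all keep their place. The pooled summit of eef-1G was 1468 bp after the first start, and its only such summit in replicate 1 was at 757 bp. That of eef-2 was 3381 bp after the first start, and the nearest in replicate 1 was at 3216 bp. In replicate 1 the strongest of these regions was at eef-1A.2, 62.8 at rank 1167, close to the end of the gene.

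A further optimal region lay just past the end of 2 of the 7 genes, within 500 bp of the annotated 3′ end, where 1.58% of all protein-coding genes had one. This stretch was added after the regions had been seen. Past eef-1G the region chrV:10967934-10968404 had a signal of 1938 and rank 15, above the 402 at the gene's start. Its signal was 805 in replicate 1 and 1137 in replicate 2, and its rank was 15 in either. The summit was 244 bp past the 3′ end, in an intron of F17C11.22 on the opposite strand and 146 bp upstream of the antisense RNA gene F17C11.20, and no protein-coding window held it. Past eef-1B.2 the region chrIV:15039555-15039958 had a signal of 161 and rank 715, with 85.8 in replicate 1 and 66.8 in replicate 2. Its summit was 206 bp past the end and also 138 bp after the start of the next gene, hrpu-1. It lay in an exon of Y41E3.459, a non-coding RNA gene on the opposite strand, whose start was nearer, at 66 bp.

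Genes of a wider list drawn up around elongation and termination had optimal regions about as often as all protein-coding genes. The list is mixed and holds mitochondrial genes such as tufm-2. It also holds genes that are not themselves elongation or termination factors, such as the kinase gene efk-1, dph-1, dhps-1, eftu-2 and gcn-1. Its share is therefore not that of elongation and termination factors alone. Of a list of 32 further names, 22 matched the annotation and 1 had an optimal region, which is 4.55% beside 4.81% of all protein-coding genes. That gene was erfa-1, the class 1 release factor that reads stop codons, with a signal of 125 and rank 1173, at 55.4 in replicate 1 and 73.1 in replicate 2. A pooled region without an optimal one was present at 10 of the 22 and at 34.2% of all protein-coding genes, the strongest in the list being tufm-2, for the mitochondrial elongation factor Tu, at 96.5 and erfa-3, for the release factor GTPase, at 85.3. The second worm eIF5A gene, iff-1, had a pooled signal of 38.0 at rank 22413, where iff-2 had 1546. In replicate 2, iff-1 had no region in its window. The kinase of EEF-2, efk-1, had 33.1 at rank 29092. Its summit was 192 bp from the start in the pooled list, but -514 bp in replicate 1 and -334 bp in replicate 2 (negative is upstream). The lowest pooled signal was 32.5 and the median 45.2, so both iff-1 and efk-1 lay in the weaker part of a list that holds background. For scale, cytosolic ribosomal protein genes had an optimal region at 26 of 78 (33.3%) with a median signal of 259 and a median summit distance of 288 bp. Translation initiation factor genes had one at 2 of 32 (6.25%), with a median signal of 195.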

How the data were processed

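LET-607-GFP ChIP-seq of 2 biological replicates was deposited as region lists on ce11. Per the labels and the text deposited with the files, each list was called from replicate alignments and a control alignment, and the optimal list came from the lists of both replicates together with the pooled one. Names and versions of aligner and caller were not given in the sources used here. Deposited signal and −log10 q-value of each region are the authors' own values, and the deposited offset gave the summit. All 1488 optimal regions were the 1488 strongest pooled regions, so ranks follow signal. Labels name the replicates as biological but do not say how cultures were separated.

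Genes and starts came from Ensembl release 115 for WBcel235, the same assembly as ce11, and sequence from the RefSeq FASTA of that assembly. A summit counted for every gene whose window, 1000 bp before to 200 bp after any annotated start, held it. The strongest region per gene and list was used. Words were counted on both strands in 50 bp to either side of each summit. Proteins were translated from the annotated coding sequence and aligned locally, taking the best-scoring pair of isoforms. Positions are 1-based. No test was run and no p-value computed: the genes, motifs and lists were chosen with earlier results of these data known. Named genes were the 7 elongation factor genes, genes whose window or body held their summits, and listed factors with an optimal region. After their values were seen, tufm-2, erfa-3, iff-1, efk-1, other listed genes, R03G5.8, fcd-2 and the genes at the regions past 3′ ends were named. Of the steps, only the assignment of a summit to a window and its distance to a start were tested on simulated positions. Software was Python 3.11.15, pandas 2.3.3, numpy 2.4.6, Biopython 1.88 and matplotlib 3.10.9. Alternatives changed the window, the assignment to starts, the threshold, the motif window and the replicate used.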

Additional observations from a re-analysis of the deposited data

How the results depend on the processing

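The count of 7 genes with an optimal region was 7 with windows of 500 bp before to 100 bp after and of 2000 bp before to 500 bp after the start. It was 6 when a summit counted for the nearest start alone (eef-1A.1 lost to rfc-4) and 5 with the stronger 50% of the list (both eef-1B genes lost). With the strongest regions of a single replicate it was 5 to 6: without replicate 1 eef-1B.2 was lost, and without replicate 2 both eef-1B genes. The median signal of 269 became 336 with the nearest start alone and 402 with the stronger 50% of the list, by the loss of weaker genes, and 179 and 182 on the scale of a single replicate, without replicate 1 and without replicate 2. The number of genes with any of the 9 motifs, 2 within 50 bp of the summit, was 1 within 25 bp, 6 within 100 bp and 6 in the whole region. Any of the 9 was in 56.3% of optimal windows within 50 bp and in 77.0% within 100 bp. Each word found at a pair of genes was at 1 gene within 25 bp. Of the motifs searched, TGACG was at 1 gene without replicate 2 and at 2 genes in the whole region, and TGATAA at 1 gene in the whole region. No paired analysis was possible because all samples form 1 group and no test was run. With 2 replicates and no read counts, counting error cannot be given, and the signal of weak regions such as those of the eef-1B genes rests on the authors' calls.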

Other observations

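The word CTGCGTAG, found at eef-1G and iff-2, was also in the optimal summit windows of other genes. One was shared by the promoter windows of rpl-12, a ribosomal protein gene, and lin-54, with a signal of 356. Another was shared by vha-1, a subunit gene of the vacuolar proton pump, and sqv-3, with a signal of 383, and another by drr-2 and set-16 with a signal of 422. With 12 windows in all, and with the word chosen from 2 of them, this is a list of places and carries no test. These genes were named after their values were seen.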
